A study of Mus musculus with 16 samples.

Results

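The 7 genes described here were Oas1a, Oas1b, Oas1g, Oas2, Oas3, Oasl1 and Oasl2, mouse members of the oligoadenylate synthetase (OAS) family. They were taken by gene symbol from a count table of 54532 genes, and 7 of 7 were among the 18777 genes with enough counts to be tested.

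OAS enzymes bind double-stranded RNA and then join ATP into short oligoadenylates. These act as a second messenger of the antiviral response, which restrains protein synthesis and virus growth. The genes are transcribed in response to type I interferon, which cells make after cytosolic DNA or RNA has been sensed, and their transcripts are widely used as a readout of that response. The OASL proteins resemble the synthetases and carry ubiquitin-like repeats; Oasl1 lacks the synthetase activity and acts on the translation of Irf7.

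RNA was sequenced from 16 libraries of orthotopic colorectal tumours in C57BL/6 mice, grown from MC38 colon carcinoma cells that were either MSI, for microsatellite instability, or CIN, for chromosomal instability. All mice also received bone marrow derived dendritic cells on days 1, 6 and 12, which had been exposed with Lipofectamine 2000 for 30 minutes to 2 µg of MSI or CIN DNA, either free cytosolic DNA or micronuclei. The 8 groups were thus MSI or CIN tumours, each with dendritic cells given MSI free DNA, MSI micronuclei, CIN free DNA or CIN micronuclei, and each had 2 libraries. Tumours were collected on day 15, and RNA of 3 biological replicates was combined. The sources do not say whether the libraries of a group are separate pools, so every p-value below rests on the spread among these libraries alone, which may be technical. Tumours with unstimulated dendritic cells, or with none, were not analysed here. In whole tumour RNA, fewer cells of a type and less RNA per cell cannot be told apart.

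Library totals ran from 11561955 to 17937501 counts. The tissue label was checked against 12 colon epithelium markers (among them Epcam, Cdh1, Muc2 and Car1), and 12 of 12 had counts in every library. Their level varied widely, with a summed level of 254 to 11625 CPM (counts scaled to the library total) in CIN tumours and 968 to 21127 CPM in MSI tumours. The 4 libraries with the highest mean level of these markers were the replicate 2 libraries of the MSI tumour groups. Skeletal muscle markers, in contrast, were high in 5 libraries, both CIN tumour libraries with MSI micronuclei among them. Leukocyte markers differed less, with a summed level of 489 to 666 CPM in CIN tumours and 502 to 724 CPM in MSI tumours.

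The 7 genes lie in 2 clusters on chromosome 5 (GRCm38 coordinates, as in the count table). Oasl2 (114896936-114912234, plus strand) and Oasl1 (114923240-114937915, plus strand) are neighbours. The other cluster holds Oas2 (120730333-120749853, minus strand), Oas3 (120753098-120777661, minus strand), Oas1b (120812635-120824163, plus strand), Oas1g (120876142-120887613, minus strand) and Oas1a (120896256-120907521, minus strand). The table lists Oas1b as a polymorphic pseudogene, and in C57BL/6 mice a stop codon is known to shorten its protein. Oas2 and Oasl1 overlap a gene on the opposite strand, and reads in those overlaps could not be assigned with certainty.

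The promoters are shown because the members fell into separate patterns below, and the interferon-stimulated response element (ISRE) is the site through which type I interferon acts on this family. RefSeq (build GRCm38.p6) gave 5 of the 7 start sites. The 250 bases before each start, 5′ to 3′ on the gene's strand, are printed with matches to the ISRE core (GAAA, any 2 bases, GAAA) in capitals. Positions below are counted back from the start site.
Oas1a, chr5:120907526-120907775, minus strand: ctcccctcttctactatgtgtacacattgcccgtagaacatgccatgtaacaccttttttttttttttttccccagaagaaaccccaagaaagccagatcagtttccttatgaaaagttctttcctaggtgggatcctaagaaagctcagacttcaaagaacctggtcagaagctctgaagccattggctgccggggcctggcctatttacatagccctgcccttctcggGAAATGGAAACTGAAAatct
Oas1g, chr5:120887614-120887863, minus strand: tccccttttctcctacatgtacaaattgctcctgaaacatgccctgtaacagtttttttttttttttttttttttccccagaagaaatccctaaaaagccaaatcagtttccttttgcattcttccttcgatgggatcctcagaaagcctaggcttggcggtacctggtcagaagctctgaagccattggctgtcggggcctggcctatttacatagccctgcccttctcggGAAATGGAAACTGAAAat
Oas3, chr5:120777660-120777909, minus strand: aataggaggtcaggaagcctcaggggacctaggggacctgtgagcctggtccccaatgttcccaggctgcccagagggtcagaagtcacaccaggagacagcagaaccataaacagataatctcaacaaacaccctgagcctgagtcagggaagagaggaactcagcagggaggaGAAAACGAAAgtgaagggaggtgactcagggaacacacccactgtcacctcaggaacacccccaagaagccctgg
Oasl1, chr5:114922990-114923239, plus strand: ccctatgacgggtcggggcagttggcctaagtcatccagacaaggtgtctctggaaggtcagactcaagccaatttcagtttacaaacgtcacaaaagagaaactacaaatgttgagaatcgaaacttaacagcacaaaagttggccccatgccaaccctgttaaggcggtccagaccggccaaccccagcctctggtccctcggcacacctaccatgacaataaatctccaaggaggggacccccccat
Oasl2, chr5:114896684-114896933, plus strand: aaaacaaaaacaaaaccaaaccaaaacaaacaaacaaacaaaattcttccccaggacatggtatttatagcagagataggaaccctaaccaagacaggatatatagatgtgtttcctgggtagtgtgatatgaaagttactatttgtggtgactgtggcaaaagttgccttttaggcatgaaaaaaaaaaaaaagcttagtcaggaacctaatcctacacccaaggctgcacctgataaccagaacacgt

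Oas1a and Oas1g each held 2 overlapping ISRE core matches close to the start, at -20 to -11 and -14 to -5 in Oas1a and at -18 to -9 and -12 to -3 in Oas1g. Oas3 held 1 match, at -75 to -66. The letters were not found in the Oasl1 and Oasl2 windows. Matches thus did not divide the 5 promoters by the 2 patterns described below, as each pattern had members with and without a match. The search ran over both strands from 250 bases before to 50 bases after each start, and in the same window 3.44% of 32851 RefSeq promoters held the ISRE core. Among 17 other interferon-stimulated genes with a promoter in the table, 9 held it, Ifit1, Isg15 and Rsad2 among them. The interferon-gamma activated site TTCNNNGAA, which occurred in 8.3% of all promoters, was found in Oas1a alone, at -98 to -90. Oas1a and Oas1g shared an unbroken run of 56 bases, whereas no other pair of the 5 promoters shared more than 9.

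The similarity of Oas1a and Oas1g extends to the transcripts, which limits how far their counts can be separated. Of all stretches of 150 bases in the annotated Oas1a transcript, 32.4% occurred unchanged in Oas1g, and 24.1% of those of Oas1g occurred in Oas1a. At that length no stretch of Oas1b, Oas2, Oas3, Oasl1 or Oasl2 was shared with another OAS gene. Values of Oas1a and Oas1g are therefore uncertain in their split, and the summed counts of Oas1a to Oas1h were also tested.

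Compared per length, in FPKM (fragment counts scaled to gene length and library total), Oasl2 and Oas1a were the most abundant members. Oasl2 had 22.9 ± 8.63 FPKM and Oas1a 22.1 ± 12.7 FPKM (mean ± SD, n = 16). Oasl2 was first in 10 libraries and Oas1a in 6, and these 2 genes were above the other 5 in 16 of 16. The difference between them was smaller than their spread.

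The remaining members followed with overlapping ranges. Oas1g had 10.4 ± 7.09 FPKM, Oasl1 9.53 ± 6.77, Oas2 9.23 ± 3.04, Oas1b 7.70 ± 1.80 and Oas3 7.15 ± 2.52 (n = 16 each). Neighbours in this order differed by less than their SDs. Of the Oas1 copies outside the 7, Oas1c reached 2.36 to 6.12 CPM, Oas1h had 167 counts over all libraries, Oas1d 18, Oas1e 7 and Oas1f 0.

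The interferons themselves were hardly seen. Of 20 interferon genes looked up, 13 had 0 counts in all 16 libraries and 6 had from 1 to 11 counts in total, Ifnb1 with 7 among them. Ifng, made by T and NK cells, had 701 counts and a log2 difference between MSI and CIN tumours of 0.32 ± 0.27 (adjusted p = 0.481 by edgeR).

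All 7 members shared both extremes of the group means. The highest mean was in MSI tumours given CIN free DNA and the lowest in CIN tumours given MSI micronuclei, for 7 of 7 genes. Of all 18777 genes tested, 4.88% had these 2 groups as their extremes. Among 21 other interferon-stimulated genes 15 did, with Isg15, Ifit1, Mx1 and Rsad2 among them. Both libraries of the lowest group were among the 5 rich in skeletal muscle transcripts, whose part in the order of the groups was not tested. The pattern was picked after the values had been seen, genes measured in the same libraries are not independent, and no test was made of it.

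For Oas3, which encodes the largest of the synthetases, the 2 libraries of MSI tumours given CIN free DNA had 74.9 and 98.2 CPM. The other MSI tumour libraries had 48.9 and 55.0 CPM after MSI free DNA, 48.7 and 34.8 after MSI micronuclei, and 47.0 and 59.5 after CIN micronuclei. CIN tumour libraries had 38.8 and 46.2 CPM after MSI free DNA, 33.6 and 37.4 after MSI micronuclei, 45.7 and 42.8 after CIN free DNA, and 46.3 and 52.8 after CIN micronuclei. Both libraries of the highest group thus lay above the other 14.

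For Oasl2, MSI tumours given CIN free DNA had 188.5 and 283 CPM. MSI tumours had 154 and 187.8 CPM after MSI free DNA, 136 and 118 after MSI micronuclei, and 105 and 185 after CIN micronuclei. CIN tumours had 117 and 129 CPM after MSI free DNA, 82.1 and 90.3 after MSI micronuclei, 129 and 119 after CIN free DNA, and 150 and 155 after CIN micronuclei. The 2 libraries of the highest group lay above and those of the lowest group below the other 14 in each case.

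Oas2, a synthetase built of a pair of OAS units, showed the same separation at both ends. It had 60.6 and 71.5 CPM in MSI tumours given CIN free DNA and 22.2 and 30.8 CPM in CIN tumours given MSI micronuclei. The highest other library had 57.4 CPM and the lowest other 31.0 CPM, so the separation at the lower end was slight. Over all genes tested, 0.437% had both libraries of the upper group above the other 14, and 2.33% had both libraries of the lower group below the other 14. The members with such a separation were Oas2, Oas3 and Oasl2 at the top and Oas2 and Oasl2 at the bottom.

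In Oas1a and Oas1g, both active synthetases, and in Oasl1 the same group means were highest, but 1 library of the pair carried them. Oas1a had 36.8 and 94.4 CPM in MSI tumours given CIN free DNA, Oas1g 18.4 and 58.0, and Oasl1 14.9 and 62.9. The lower library of each pair lay among those of other groups. Oas1b had 24.9 and 14.9 CPM there, with the replicates in the opposite order.

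**Figure D1:**
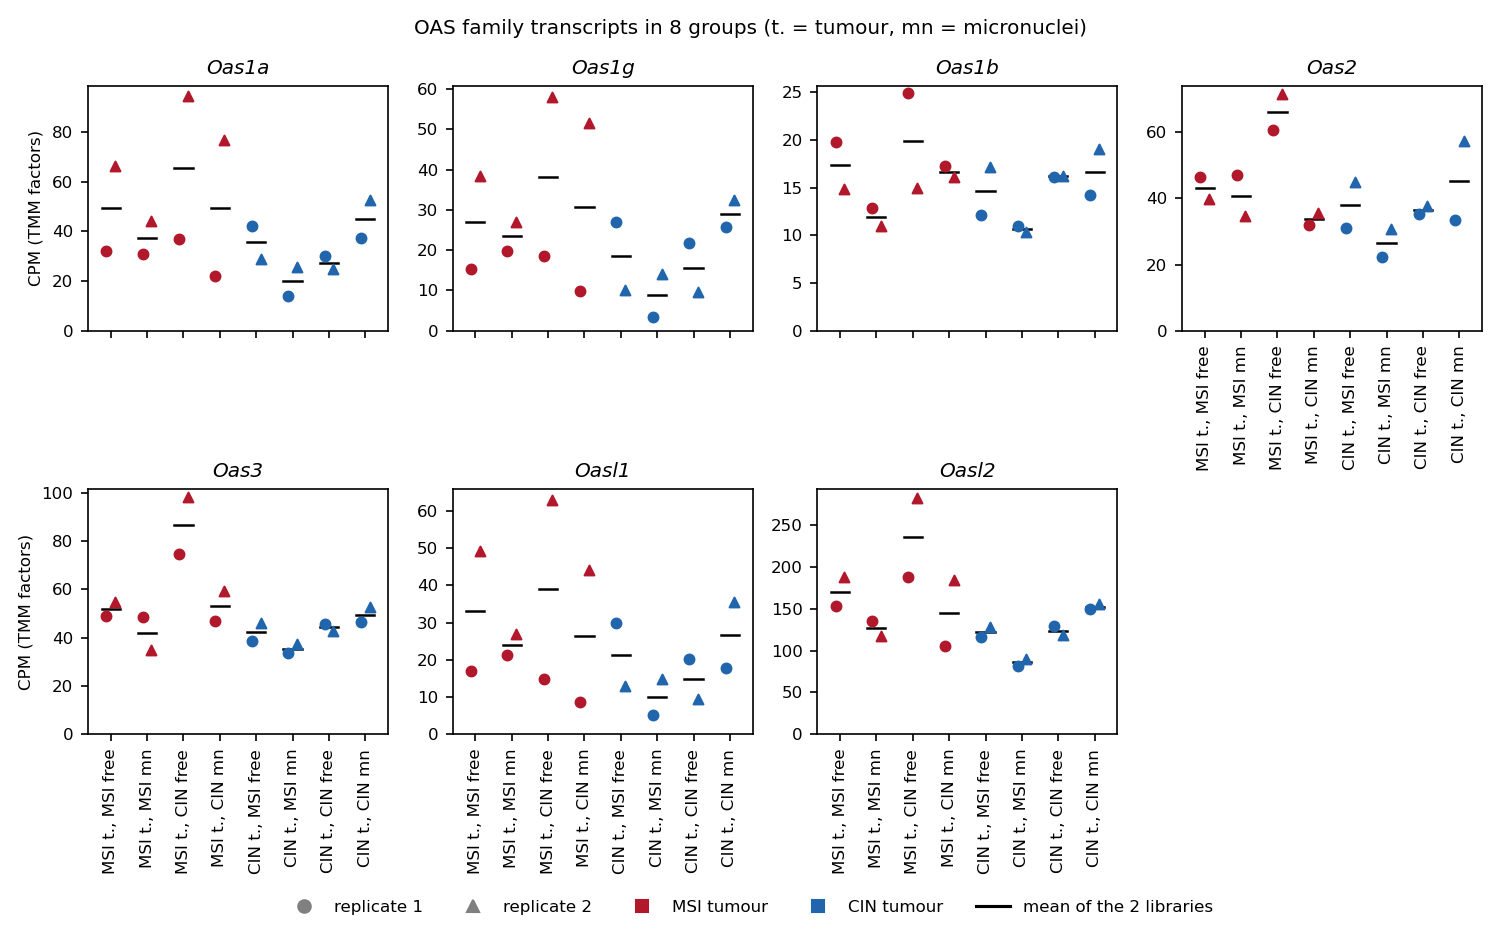
CPM of the 7 OAS genes in each of the 8 groups (x axis: tumour type, then DNA source and form given to the dendritic cells; y axis: CPM from 0). Points are single libraries and bars the mean of 2. For Oas1a, Oas1g and Oasl1 the replicate 2 libraries of MSI tumours lay above replicate 1 in each group.

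The 2 libraries of a group agreed far better for some members than for others. The median distance between them over the 8 groups, as an absolute log2 ratio, was 0.17 for Oasl2, 0.22 for Oas3, 0.32 for Oas1b and 0.34 for Oas2. It was 0.70 for Oas1a, 1.38 for Oas1g and 1.35 for Oasl1. The widest distance within a group was 0.49 for Oas3, 0.78 for Oas2 and 0.82 for Oasl2, and 2.40 for Oas1g and 2.37 for Oasl1.

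MSI tumours were compared with CIN tumours first, over 8 libraries each and averaged over the DNA given. All 7 members were higher in MSI tumours on average, by a median log2 difference of 0.47, against 0.06 over all genes tested. In the fit across all genes, 0 of 7 passed an adjusted p of 0.05, where 5.80% of all genes did, 2.32% of them as higher and 3.48% as lower (edgeR's quasi-likelihood test with Benjamini-Hochberg adjustment). Without adjustment 3 of 7 had a p under 0.05, against 22.1% of all genes. Replicate numbers paired the libraries of MSI tumours, and with a replicate block within each tumour type 3 of 7 passed, Oasl2 (edgeR adjusted p = 0.0140), Oas3 (0.0223) and Oas2 (0.0494). With 1 replicate block over both tumour types Oas3 (0.0357) and Oasl2 (0.0362) passed. Of the 18777 genes tested, 3428 passed with the block within each tumour type and 1778 with the 1 block, against 1089 without a block.

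Markers of several cell types moved with the members in this comparison. Endothelial markers were higher in MSI tumours in 6 of 6 cases, 5 of them past the threshold, by a median log2 difference of 0.76. Their summed level was 103 to 164 CPM in MSI and 64.3 to 117 CPM in CIN tumours, with none at 0 in any library. Colon epithelium (12 of 12), smooth muscle (8 of 8), T and NK cell (9 of 9) and B and plasma cell markers (6 of 6) were higher on average and skeletal muscle markers lower (7 of 7), with 0 past the threshold. The part of endothelial, smooth muscle, T, NK and B cells in the members' difference was not tested.

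Oas3 and Oasl2 came closest to the threshold. Oas3 ran from 34.8 over a median of 51.9 to 98.2 CPM in MSI tumours and from 33.6 over 44.2 to 52.8 CPM in CIN tumours. Its log2 difference was 0.40 ± 0.11 (SE, adjusted p = 0.0523 by edgeR). Oasl2 ran from 105 over 170 to 283 CPM in MSI tumours and from 82.1 over 124 to 155 CPM in CIN tumours. Its log2 difference was 0.47 ± 0.13 (adjusted p = 0.0603 by edgeR). The ranges of the tumour types overlapped for both genes.

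DESeq2 in place of edgeR called 2295 genes for the tumour type, where edgeR called 1089. Oas3 and Oasl2, beside passing with the replicate block, passed with DESeq2, at an adjusted p of 0.0290 for Oas3 and 0.0368 for Oasl2. They also passed in edgeR without replicate 1 of MSI tumours given CIN micronuclei, or without replicate 1 of MSI tumours given CIN free DNA, and Oas3 alone passed without replicate 2 of MSI tumours given MSI micronuclei. The block, the choice of tool or 1 library therefore moved these 2 genes across the threshold. With the leukocyte marker level as a covariate both also passed (edgeR adjusted p = 0.0379 for Oas3 and 0.0218 for Oasl2). Neither passed with colon and skeletal muscle marker levels as covariates (0.0690 and 0.0790 by edgeR). Nor did they with other library scalings, without the low-count filter or in an additive model of tumour type, DNA source and DNA form.

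Oas2 and Oas1b differed less. Oas2 had 46.0 ± 13.8 CPM in MSI and 36.6 ± 10.6 CPM in CIN tumours (SD, n = 8), a log2 difference of 0.31 ± 0.14 (edgeR adjusted p = 0.237). Oas1b had 16.4 ± 4.33 and 14.5 ± 3.13 CPM, a log2 difference of 0.18 ± 0.14 (edgeR adjusted p = 0.469).

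The members with the largest mean differences were those with the largest spread. Oas1g had 29.8 ± 17.7 CPM in MSI and 18.0 ± 10.2 CPM in CIN tumours, a log2 difference of 0.83 ± 0.47 (edgeR adjusted p = 0.322). Oasl1 had 30.6 ± 19.3 and 18.2 ± 10.2 CPM, a log2 difference of 0.82 ± 0.47 (edgeR adjusted p = 0.332). Oas1a had 50.4 ± 25.7 and 32.0 ± 11.8 CPM, a log2 difference of 0.69 ± 0.31 (edgeR adjusted p = 0.218).

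Without the 4 MSI tumour libraries richest in colon markers, the differences of these 3 genes were -0.11 for Oas1g, -0.22 for Oasl1 and -0.03 for Oas1a. Oasl2 was then 0.26 in place of 0.47, Oas3 0.33 in place of 0.40, and Oas1b 0.34 in place of 0.18. Without the 5 muscle-rich libraries Oas1g was 0.39 and Oasl1 0.42, in the additive model. The model with 1 mean per group could not be kept there, as CIN tumours given MSI micronuclei lost both libraries. With colon and skeletal muscle marker levels as covariates Oas1g, Oasl1 and Oas1a were 0.20, 0.17 and 0.28. The summed counts of Oas1a to Oas1h, Oas1b included, do not depend on the split between Oas1a and Oas1g. They gave a log2 difference of 0.59 ± 0.26 (edgeR adjusted p = 0.212).

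**Figure D2:**
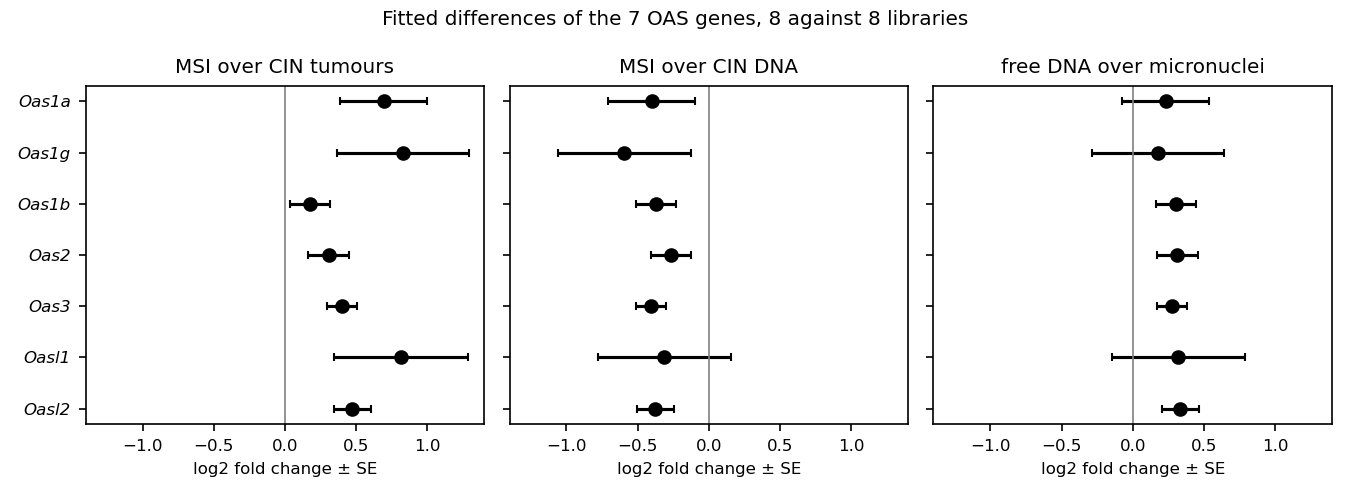
Fitted log2 differences of the 7 OAS genes with their standard errors for MSI over CIN tumours, MSI over CIN DNA and free DNA over micronuclei (x axis: log2 fold change, 8 against 8 libraries; y axis: gene). All 7 were above 0 for the tumour type, below 0 for the DNA source and above 0 for the DNA form. None passed the adjusted threshold in the edgeR fit shown, which had no replicate block and no covariate.

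Tumours of mice given dendritic cells with MSI DNA were then compared with those given CIN DNA, over both tumour types and DNA forms. All 7 members were lower with MSI DNA, by a median log2 difference of -0.37, against -0.03 over all genes tested, of which 60.3% were lower. None of the 7 passed the adjusted threshold, and nor did any other gene (0% of all genes tested). Without adjustment 3 members had a p under 0.05, against 1.11% of all genes. Markers of several cell types were also lower on average with MSI DNA, in 12 of 12 cases for colon epithelium (median log2 difference -0.24), 8 of 8 for smooth muscle (-0.39), 9 of 9 for T and NK cells (-0.32), 6 of 6 for B and plasma cells (-0.71) and 6 of 6 for leukocytes (-0.09), with 0 past the threshold. Endothelial markers were higher in 4 of 6 cases (0.02), and macrophage and monocyte markers in 3 of 9 (-0.06). The part of these cell types in the members' difference was not tested.

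The 3 members with an unadjusted edgeR p under 0.05 were Oas3, Oasl2 and Oas1b. Each was lower with MSI DNA in 4 of 4 matched pairs of groups. Oas3 had 42.9 ± 7.80 CPM with MSI DNA and 58.4 ± 19.2 CPM with CIN DNA, a log2 difference of -0.41 ± 0.11 (edgeR unadjusted p = 0.00274). Oasl2 had 127 ± 33.9 and 164 ± 56.4 CPM, a log2 difference of -0.37 ± 0.13 (edgeR unadjusted p = 0.0152). Oas1b had 13.6 ± 3.37 and 17.4 ± 3.38 CPM, a log2 difference of -0.37 ± 0.14 (edgeR unadjusted p = 0.0253). The adjusted p was 1.00 for all 3.

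Oas2 was lower with MSI DNA in 2 of 4 matched pairs and Oas1a, Oas1g and Oasl1 in 3 of 4. Their log2 differences were -0.27 ± 0.14, -0.40 ± 0.31, -0.59 ± 0.46 and -0.31 ± 0.47. That of Oasl1 was 0.17 without the 4 MSI tumour libraries richest in colon markers, 0.09 without replicate 2 of MSI tumours given CIN micronuclei and 0.03 without replicate 2 of MSI tumours given CIN free DNA. The median over the members was -0.34 in MSI tumours and -0.40 in CIN tumours.

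Free DNA was compared with micronuclei in the same way. All 7 members were higher with free DNA, by a median log2 difference of 0.30, against 0.00083 over all genes tested, of which 50.4% were higher. Again 0 of 7 members and 0% of all genes passed the adjusted threshold. Without adjustment 2 members had a p under 0.05, against 0.788% of all genes. Markers of leukocytes (6 of 6, median log2 difference 0.09), B and plasma cells (6 of 6, 0.22), T and NK cells (8 of 9, 0.18) and colon epithelium (11 of 12, 0.07) were also higher on average with free DNA and those of skeletal muscle lower (7 of 7, -0.55), with 0 past the threshold. Endothelial markers were lower in 6 of 6 cases (-0.08). Macrophage and monocyte (5 of 9 higher) and fibroblast markers (3 of 6 higher) were split. The part of these cell types in the members' difference was not tested.

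Oas3 had 56.3 ± 20.2 CPM after free DNA and 45.0 ± 9.13 CPM after micronuclei, a log2 difference of 0.28 ± 0.10 (edgeR unadjusted p = 0.0232). Oasl2 had 163 ± 56.3 and 128 ± 35.3 CPM, a log2 difference of 0.33 ± 0.13 (edgeR unadjusted p = 0.0262). Oas2 and Oas1b differed by 0.31 ± 0.14 and 0.30 ± 0.14. For Oas1a, Oas1g and Oasl1 the SE exceeded the difference, at 0.23 ± 0.31, 0.18 ± 0.46 and 0.32 ± 0.47.

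The difference was not even over the groups. In the CIN tumours given CIN DNA all 7 members had a lower mean with free DNA than with micronuclei, and in the other 3 matched pairs all 7 had a higher one. In MSI tumours the median over the members was 0.51, with Oasl2 at 0.56 ± 0.18, Oas2 at 0.52 ± 0.20 and Oas3 at 0.51 ± 0.15, and in CIN tumours it was 0.10. In neither tumour type did a member pass (0% of all genes). Tested directly, the difference between tumour types did not pass for any member either (0% of all genes). Divided by 2, it was 0.23 ± 0.10 for Oas3 (edgeR unadjusted p = 0.0513, adjusted p = 1.00) and had a median of 0.19. In MSI tumours the values of Oas1a, Oas1g and Oasl1 turned to -0.01, -0.26 and -0.17 without replicate 2 of the group given CIN free DNA.

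The deposited title places the study in mismatch-repair deficiency, so MSI free DNA and CIN micronuclei were also set against each other directly, 2 libraries against 2. In MSI tumours the 7 members had a median log2 difference of 0.06, with Oas3 at -0.04 ± 0.21 and Oasl2 at 0.24 ± 0.26. In CIN tumours the median was -0.32, with Oas3 at -0.22 ± 0.21 and Oasl2 at -0.32 ± 0.26. No member and no other gene passed the threshold (0% of all genes in both tumour types), and 0 of 7 members had an unadjusted p under 0.05 in edgeR, against 0.644% and 0.825% of all genes in MSI and CIN tumours.

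The members followed 2 patterns across the 16 libraries. Oas1a, Oas1g and Oasl1 varied together, with a Pearson r of log2 CPM of 0.95 to 0.96 for each pair. Oasl2 and Oas3 formed the closest pair outside that set (r = 0.92), and Oas2 was near both (r = 0.80 and 0.83). Oasl2 was also near the first set, with an r of 0.85 to Oas1a, 0.78 to Oas1g and 0.76 to Oasl1. Oas3 had 0.67, 0.58 and 0.55 to the same genes, so the 2 patterns were not cleanly separate. Oas1b was nearly unrelated to Oasl1 (r = 0.04) and Oas1g (r = 0.12) and closest to Oas2 (r = 0.63). These values describe libraries that share groups and scaling.

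**Figure D3:**
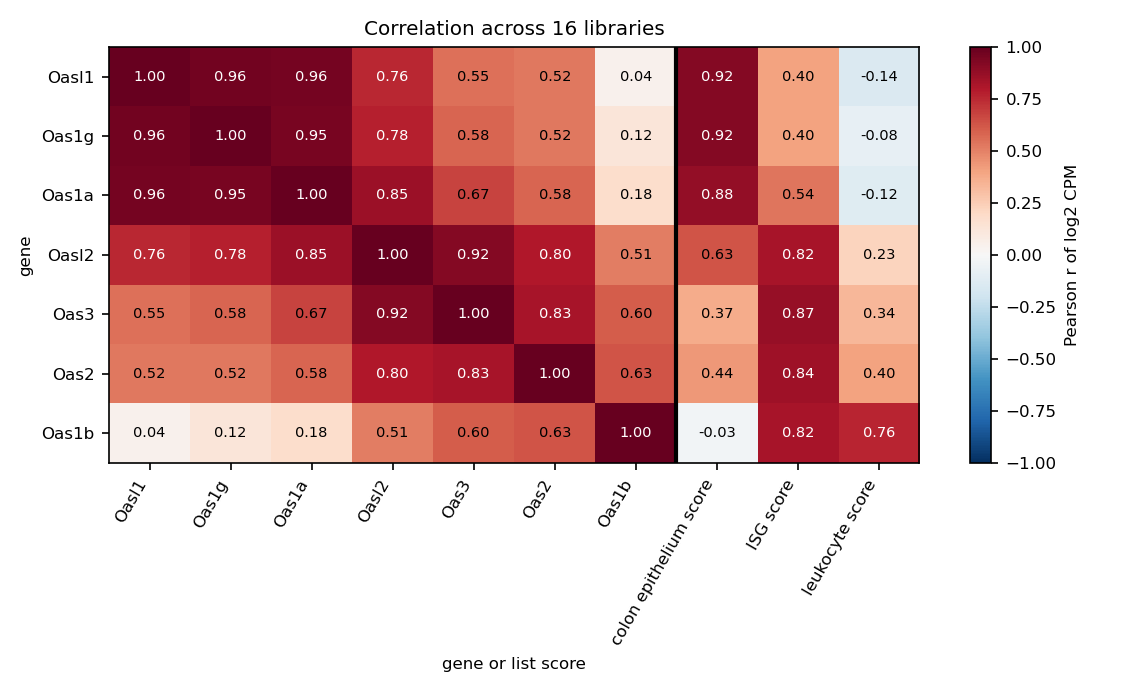
Pearson correlation of log2 CPM across 16 libraries (colour scale from -1 to 1) among the 7 OAS genes and, right of the black line, with the mean log2 level of 3 gene lists (ISG: 21 other interferon-stimulated genes). Oasl1, Oas1g and Oas1a form a block that follows the colon epithelium score, and Oasl2, Oas3, Oas2 and Oas1b follow the ISG score.

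The first pattern followed the colon epithelium markers. Against the mean log2 level of the 12 markers, Oas1g had a Pearson r of 0.921 (Spearman rho 0.921), Oasl1 0.921 (0.929) and Oas1a 0.877 (0.903), with permutation p-values of 1e-05, the smallest that 100000 resamples can give, for Oas1g and Oasl1 and 2e-05 for Oas1a. After Benjamini-Hochberg adjustment over 21 relations (7 genes and 3 lists) the p-values were 7e-05 for Oas1g and Oasl1 and 0.000105 for Oas1a. The permutations moved all 16 libraries freely across tumour types, groups and replicate numbers, here and for the other lists. These p-values therefore make no allowance for that structure, and those within a tumour type make none for the groups. Without the 2 libraries farthest from the median, r was 0.848, 0.893 and 0.826.

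The relation held within CIN tumours, with an r of 0.939 for Oas1g, 0.894 for Oasl1 and 0.923 for Oas1a (n = 8, exact permutation p = 0.000719, 0.000794 and 0.000719). In MSI tumours the replicate 2 libraries, with a colon marker level of 8.66 to 9.43, all lay above those of replicate 1, whose levels spanned 5.09 to 7.72. There the relation cannot be told apart from the replicate split, and no correlation is given. Smooth muscle markers (r = 0.953) and B and plasma cell markers (0.884) moved with the colon markers, and fibroblast markers less closely (0.630). Macrophage and monocyte (-0.663) and skeletal muscle markers (-0.630) went the other way, leukocyte (-0.247) and neutrophil markers (-0.184) weakly so. Colon epithelium therefore cannot be told apart here from normal colon wall as a whole or from B and plasma cells. Which cells the transcripts came from was not tested.

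The second pattern followed the other interferon-stimulated genes. Against the mean log2 level of 21 such genes, Oas3 had an r of 0.872 (rho 0.853), Oas2 0.844 (0.859), Oas1b 0.822 (0.782) and Oasl2 0.821 (0.838), with adjusted permutation p-values of 7e-05, 0.000294, 0.00033 and 0.00033. Without the 2 farthest libraries r was 0.854, 0.834, 0.692 and 0.789. Within MSI tumours it was 0.924, 0.793, 0.706 and 0.845 (n = 8, exact permutation p = 0.00109, 0.0208, 0.0471 and 0.00875). Within CIN tumours it was 0.787, 0.834, 0.959 and 0.671 (n = 8, exact permutation p = 0.0232, 0.00642, 0.000322 and 0.0719), so that Oasl2 did not reach 0.05 there.

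Each pattern was weaker for the other set. Against the interferon-stimulated genes Oas1g and Oasl1 had an r of 0.403 and 0.404 (adjusted permutation p = 0.185 for both) and Oas1a 0.538 (0.0661). Against the colon markers Oas1b had -0.0308, Oas3 0.369 and Oas2 0.437, none passing the adjusted threshold, while Oasl2 had 0.626 (adjusted permutation p = 0.0242) but 0.399 without the 2 farthest libraries. The difference between these correlations was not tested. The 2 list scores were weakly related to each other (r = 0.237).

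Oas1b also followed the leukocyte markers (r = 0.765, adjusted permutation p = 0.00152), with 0.718 in CIN tumours (n = 8, exact permutation p = 0.0539). With the leukocyte level as a covariate, the tumour difference of Oas1b was 0.04 in place of 0.18. In MSI tumours the mean log2 level of the leukocyte markers spanned 6.17 to 6.32 for replicate 2 and 6.49 to 6.69 for replicate 1, again without overlap, so no correlation is given there either.

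**Figure D4:**
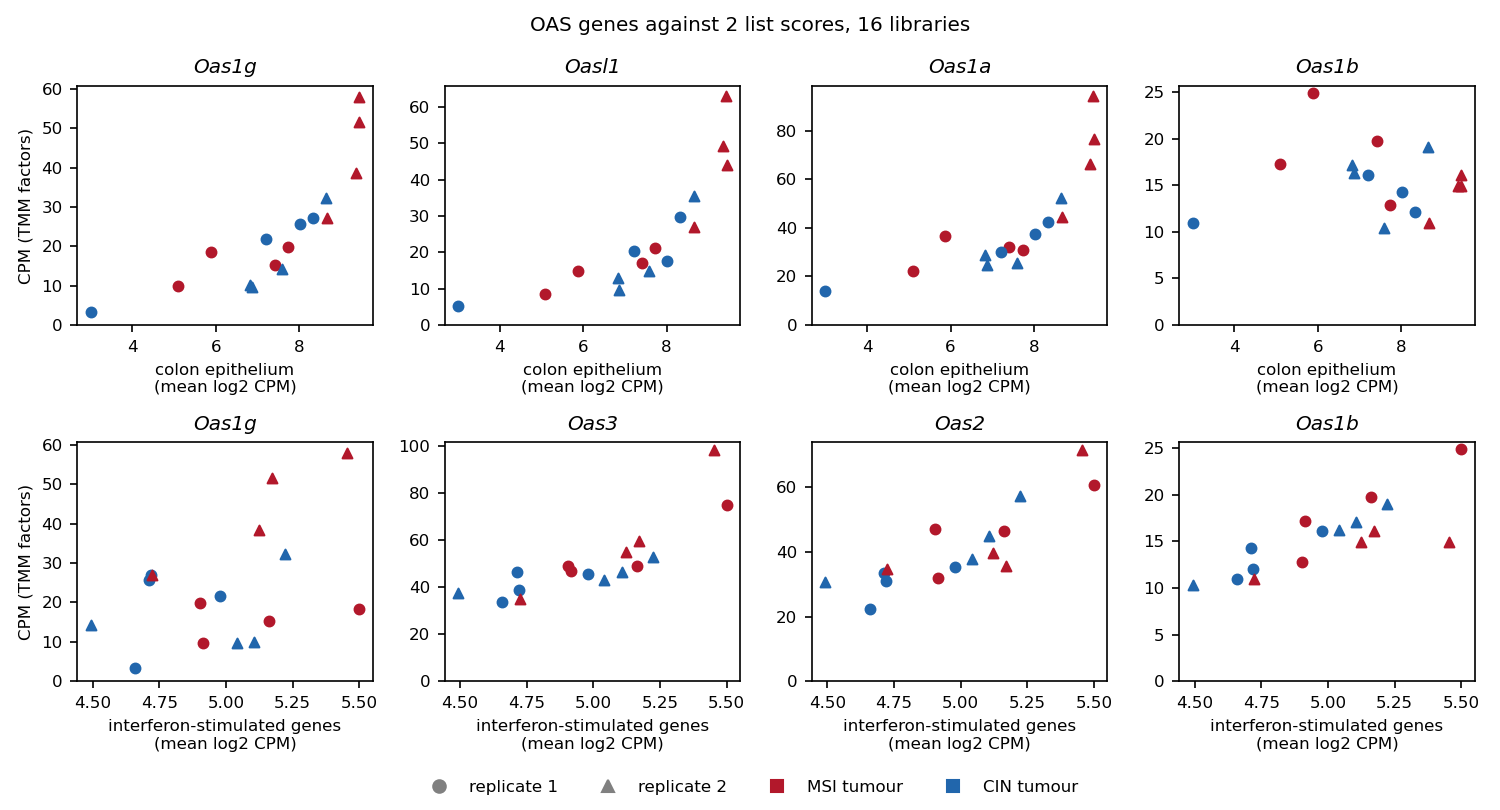
CPM of selected genes (y axes from 0) against the mean log2 CPM of 12 colon epithelium markers (upper row) and of 21 other interferon-stimulated genes (lower row), 1 point per library. Over all 16 libraries Oas1g, Oasl1 and Oas1a rise along the colon axis (r = 0.921, 0.921 and 0.877). Oas3, Oas2 and Oas1b rise along the interferon-stimulated gene axis (r = 0.872, 0.844 and 0.822). In MSI tumours the rise along the colon axis cannot be told apart from the split between replicate 1 and replicate 2.

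The genes with the most similar profiles were looked up for each member, over 13808 genes compared and 16 libraries. The mean of the 7 members was closest to Irf7 (r = 0.975), the interferon regulatory factor whose translation Oasl1 restrains, to H2-T23 (0.974), a nonclassical class I gene, and to Ddx60 (0.966), followed by Trim30d (0.957), Fam3a (0.951) and Trim5 (0.950). Oas3 was closest to Isg15 (0.915) and Rtp4 (0.885), Oasl2 to Ifit1 (0.935) and Ddx60 (0.919), and Oas2 to Parp14 (0.822) and Ifi44 (0.818), all interferon-stimulated genes. Oas1b was closest to Stat2 (0.900), part of the factor that binds the ISRE, and to Trim21 (0.882).

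Of the other 3, Oas1a was closest to Irf7 (0.980), which also led for the mean of the members, and to Lgals9 (0.977), Oas1g to Osgin1 (0.976) and Ceacam18 (0.972), and Oasl1 to Fibin (0.974) and Neurl3 (0.972).

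Of 5 tested genes of oligoadenylate turnover and further Oas1 copies, 1 rose in MSI tumours and none fell, beside the 5.80% of all genes called. Akap7, which has a domain that degrades the oligoadenylates, rose from 28.8 ± 4.31 CPM in CIN to 41.0 ± 4.77 CPM in MSI tumours (SD, n = 8), a log2 difference of 0.51 ± 0.12 (edgeR adjusted p = 0.0343). With 1 library left out at a time Akap7 passed in 3 of 16 fits (edgeR adjusted p from 0.0103 to 0.108). It did not pass without the muscle-rich libraries (0.193), without the colon-rich MSI tumour libraries (0.123) or with colon and muscle levels as covariates (0.0614), all by edgeR. Abce1, an ATPase that recycles ribosomes, had a log2 difference of -0.34 ± 0.15 (edgeR adjusted p = 0.203), and Pde12, another oligoadenylate-degrading enzyme, -0.08 ± 0.09. The copies Oas1c and Oas1h had 0.00 ± 0.24 and 0.64 ± 0.49. Oas1d, Oas1e and Oas1f were too low to be tested.

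Other genes of double-stranded RNA sensing, both sensors and partners such as the adaptor Mavs, were read as a group of 10. In MSI tumours 3 rose and 0 fell, where 2.32% of all genes were called as higher, and the median log2 difference was 0.04. Zbp1, which binds left-handed nucleic acid, rose by 0.88 ± 0.12 (edgeR adjusted p = 0.00235), Mavs, the mitochondrial adaptor of the RIG-I-like receptors, by 0.54 ± 0.07 (0.00260), and Dhx58, a regulator of those receptors, by 0.76 ± 0.13 (0.00856). Eif2ak2, the kinase PKR, had -0.16 ± 0.13 and Ifih1, the receptor MDA5, 0.41 ± 0.29, neither past the threshold. Zbp1, Mavs and Dhx58 passed in 16 of 16 fits with 1 library left out, and Zbp1 and Mavs also in 11 of 11 other alternatives. Dhx58 did not pass without the muscle-rich libraries or without the colon-rich MSI tumour libraries.

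Of 21 other interferon-stimulated genes tested, 4 rose in MSI tumours and 0 fell, with a median log2 difference of 0.23. These were Rtp4 (0.68 ± 0.11, edgeR adjusted p = 0.00524), Slfn5 (0.52 ± 0.12, 0.0327), Parp14 (0.45 ± 0.11, 0.0411) and Cmpk2 (0.65 ± 0.16, 0.0417). Ifit1 (0.42 ± 0.14), Isg15 (0.30 ± 0.12), Mx1 (0.54 ± 0.23) and Rsad2 (0.22 ± 0.17) did not pass, with edgeR adjusted p-values of 0.121, 0.167, 0.206 and 0.459. With 1 library left out Rtp4 passed in 16 of 16 fits, Slfn5 and Cmpk2 in 5 and Parp14 in 2, and none of the 4 passed without the muscle-rich libraries. The share of all genes called as higher in MSI tumours was 2.32%. None of the 21 passed for the DNA source or form. For these, 21 of 21 were lower with MSI DNA, by a median of -0.27, and 21 of 21 higher with free DNA, by a median of 0.29, the directions the 7 members also had.

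Among 11 genes of type I interferon signalling, 0 passed in any of the 3 comparisons. In MSI tumours Stat2 had a log2 difference of 0.25 ± 0.09, Irf9 0.15 ± 0.09 and Irf7 0.62 ± 0.32 (edgeR adjusted p = 0.120, 0.358 and 0.280). Of the genes beside the 2 OAS loci, 7 were tested and 0 passed, with Ptpn11, Rpl6 and P2rx7 at -0.12 ± 0.16, 0.04 ± 0.09 and -0.26 ± 0.19.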

How the data were processed

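RNA of 16 libraries was measured by poly-A selected sequencing. Per the submitters' processing notes the authors used fastp, HISAT2 2.0.5 and featureCounts 1.5.0-p3 with build GRCm39. The deposited table gave raw counts per gene, with GRCm38 coordinates (53499 of 54409 identifiers as in GENCODE M21), and 4 of its columns matched no sample and were not used. The FPKM values the authors deposited equalled counts over gene length and library total, and served for comparisons between genes. Whether counting used strand is not stated.

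From the counts, edgeR 4.0.16 in R 4.3.3 (TMM scaling, filterByExpr, 1 mean per group, robust quasi-likelihood, Benjamini-Hochberg over 18777 genes, threshold 0.05) gave log2 differences with SE. CPM used the TMM factors. Interactions are differences divided by 2. Tested on simulated data with 100 genes changed at each size, the tumour comparison recovered 77% of changes of 1 log2 unit and 93% of 2. The form comparison recovered 75% and 96%. False calls made up 5.03% and 8.06% of those called. Only genes above a floor of mean CPM were changed, and libraries were drawn independently, without replicate pairing or tissue differences. Changes under 1 log2 unit, as the members had in these comparisons, were not simulated. Replicate numbers paired libraries within MSI tumours (correlations of deviations 0.396 to 0.796). With the replicate number as a block, no member's call changed in the comparisons within MSI tumours, while calls for the tumour type did and are given beside that result.

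The members and lists were chosen with earlier results of these data known. Named were all members, pathway genes (some listed genes are not reported here), from the other lists those past the threshold and a preset few, and the most correlated genes. Alternatives covered scaling, filter, DESeq2 1.42.0, blocks, an additive model, covariates, summed Oas1 copies and left-out libraries.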

Additional observations from a re-analysis of the deposited data

Results flagged for a closer look

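Oasl2 in MSI tumours had 1 library far above the others, replicate 2 of the group given CIN free DNA, at 283 CPM. Its gap to the next of the 8 MSI tumour libraries exceeded the critical value of Dixon's test at 95%. The other library of that group had 188 CPM, which was the next highest. Of the 14 sets examined (7 genes in 2 tumour types) this 1 was flagged, and chance flags about 1 in 20.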

How the results depend on the processing

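The count of members called stayed at 0 under every alternative run for 11 of the 12 comparisons. For MSI against CIN tumours it was 2 with DESeq2 (Oas3, Oasl2), 3 with the leukocyte score as a covariate (Oas1a, Oas3, Oasl2) and 0 to 2 with 1 library left out. All genes called, 1089 in that comparison, numbered 2295 with DESeq2, 1950 in the additive model, 2880 with the leukocyte covariate, 135 without the 5 muscle-rich libraries and 477 to 1758 with 1 library left out. The cause was not tested.

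With the replicate number as a block, 2 members (Oas3, Oasl2) and 1778 genes passed for the tumour type, and with separate blocks for MSI and CIN tumours 3 (Oas2, Oas3, Oasl2) and 3428. Correlations between same-numbered libraries were over 0.1 in 16 of 28 pairs of groups, so the numbers do not pair all samples.

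Of 749 repeats of members' differences, 18 turned sign. They concern Oas1a, Oas1g and Oasl1. For the tumour type, leaving out the 4 colon-rich MSI tumour libraries, chosen after seeing the data, gave -0.0332 for Oas1a, -0.11 for Oas1g and -0.22 for Oasl1, and for the DNA source 0.17 for Oasl1. For the DNA form Oas1g was -0.0091 without the muscle-rich libraries and -0.0232 with colon and muscle covariates. With 1 library left out, the DNA form difference ran from -0.08 to 0.59 for Oas1g and from -0.01 to 0.73 for Oasl1, in MSI tumours from -0.01 to 0.98 for Oas1a, -0.26 to 1.08 for Oas1g and -0.17 to 1.32 for Oasl1, and the DNA source difference of Oasl1 from -0.55 to 0.09. Single reversed values were -0.0038, -0.0355, -0.0066 and -0.0767 for Oas1g (DNA form), -0.115, -0.136 and -0.261 for Oas1g, -0.0079 for Oas1a and -0.170 for Oasl1 (DNA form in MSI tumours), -0.014 for Oasl1 (DNA form) and 0.0936 and 0.0336 for Oasl1 (DNA source). Where a library left out leaves a group with 1, that library is assumed to vary like the other groups.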
